A study of Mus musculus with 9 samples.

Results

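The suppressor of cytokine signalling (SOCS) family has 8 genes in the mouse, Socs1 to Socs7 and Cish, and all 8 were taken by symbol from the 27179 genes in a table of liver expression. The rule names the family and uses no measured value, although the family was picked with earlier results of these data known. In GENCODE M21 coordinates (GRCm38) Socs2 lies at chr10:95385362-95417180, Cish at chr9:107296026-107302784, Socs3 at chr11:117966079-117970047 and Socs1 at chr16:10782240-10785536. The samples were pieces of the liver m-lobe from C57BL/6J mice labelled as wild type, kept on normal chow, and all of them received an AAV8 vector at 17 months of age by retro-orbital injection (3e11 vector genomes per mouse). The vector carried saCas9, a small Cas9 nuclease, under the hepatocyte promoter TBG, with a U6-driven guide RNA. In 4 mice the guide was directed at the Rosa26 locus (sgRosa26, the control) and in 5 mice at Ccnd1 (sgCcnd1), which encodes cyclin D1, an activator of the kinases that start the cell cycle. Livers were taken 3 weeks after injection and their polyadenylated RNA was sequenced in bulk. The labels give no sex, batch, hour of harvest or measure of editing, and the libraries are called A to D for sgRosa26 and E to I for sgCcnd1, following the order of the columns.

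SOCS proteins are the brakes that cytokines and hormones switch on against themselves. A ligand such as growth hormone, interleukin-6 or interferon gamma activates JAK kinases at its receptor, these phosphorylate STAT transcription factors, and the STATs induce SOCS genes among their targets. Each SOCS protein has an SH2 domain, which binds phosphorylated receptors or kinases, and a SOCS box, which recruits elongins and a cullin to form a ubiquitin ligase. In liver, Socs2 and Cish are known as targets of STAT5 downstream of growth hormone, Socs3 as a target of STAT3 downstream of interleukin-6, and Socs1 as a gene induced by interferons. Several of these transcripts are known to be short-lived, with levels that follow recent signalling.

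The promoter stretches of Cish, Socs3 and Socs1 are shown because each carries the letters that STAT or interferon regulatory factors are known to bind. They are RefSeq sequences of build GRCm38.p6, read 5′ to 3′ on the strand of the gene, with motif matches in capitals. A RefSeq promoter window, from 250 bases before to 50 bases after the transcript start, was given for 4 of the 8 genes, and that of Socs4 held none of the motifs searched.
Cish, chr9:107296655-107296683, plus strand: agttTTCCTGGAAagTTCTTGGAAatctg
Socs3, chr11:117969507-117969560, minus strand: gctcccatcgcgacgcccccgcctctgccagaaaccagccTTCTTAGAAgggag
Socs1, chr16:10785599-10785659, minus strand: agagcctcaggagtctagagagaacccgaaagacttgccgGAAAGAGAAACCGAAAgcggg
The capitals in Cish and Socs3 match TTCNNNGAA, the spacing that STAT dimers are known to bind, and those in Socs1 match the core of an interferon-stimulated response element, a pair of GAAA with any 2 bases between them. Cish held 2 matches, at bases 1 to 9 and 12 to 20 of the RefSeq transcript, a stretch that lies inside the first exon of the longer GENCODE M21 model. The match in Socs3 ran from 154 to 146 bases upstream of the RefSeq start, which lies within the bounds of the longer GENCODE gene given above. Socs1 held 2 matches that overlap each other, from 83 to 74 and from 77 to 68 bases upstream. Both strands were searched in all 32851 promoter windows of the table. TTCNNNGAA was found in 8.30% of them and at least 2 times in 0.457%, and the interferon element core in 3.44% and at least 2 times in 0.225%. TTC and GAA at the wider spacing of 4 bases, the arrangement that STAT6 is known to prefer, were in 6.95% of windows and in none of the 4 SOCS promoters. A match describes letters in the sequence and does not show that a factor was bound in these livers.

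Depth ran from 10.8 to 20.2 M gene-assigned reads (M, mega) over the 9 libraries, with group means of 15.4 ± 2.09 M (sgRosa26, SD, n = 4) and 16.3 ± 3.50 M (sgCcnd1, SD, n = 5). Ccnd1 itself averaged 744 ± 110 normalized counts in sgRosa26 and 362 ± 40.6 in sgCcnd1, with no overlap (428 at most against 625 at least). Its log2 fold change of -1.03 was the only one of 12993 genes tested that passed in limma (adjusted p = 0.0116), or 0.00770% of genes, and no gene passed as higher. It did not pass without B, D, F, H or I in turn. At an unadjusted p under 0.05, limma gave 678 genes as higher and 746 as lower, 11.0% of those tested. Library H of sgCcnd1 stood apart, since 4 Y-linked genes summed to 2.00 normalized counts there and to 1619 to 2834 in the other 8 libraries, while Xist was at 3.92 or below in all 9. Values without H are therefore given where it was the highest or lowest library of a member, and the part of this difference in them was not tested. The 6 hepatocyte markers summed to 1.67e+06 to 1.96e+06 normalized counts in sgRosa26 and to 1.545e+06 to 2.03e+06 in sgCcnd1. Of 11 clock genes tested, 5 were higher and 2 lower at an unadjusted p under 0.05, and the part of harvest time in the results was not tested.

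No SOCS gene passed the adjusted threshold of 0.05 in limma. Socs2 was the member with the largest difference, with a mean about 3 times that of controls, and it was called in 1 of 20 alternative analyses. Cish was within or below the control range in 3 of the 5 sgCcnd1 livers and at more than 2 times the highest control in the others. Socs3 had nearly the same mean in both groups, Socs1 was low throughout, and Socs4 to Socs7 had log2 fold changes between -0.15 and 0.39.

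**Figure D1:**
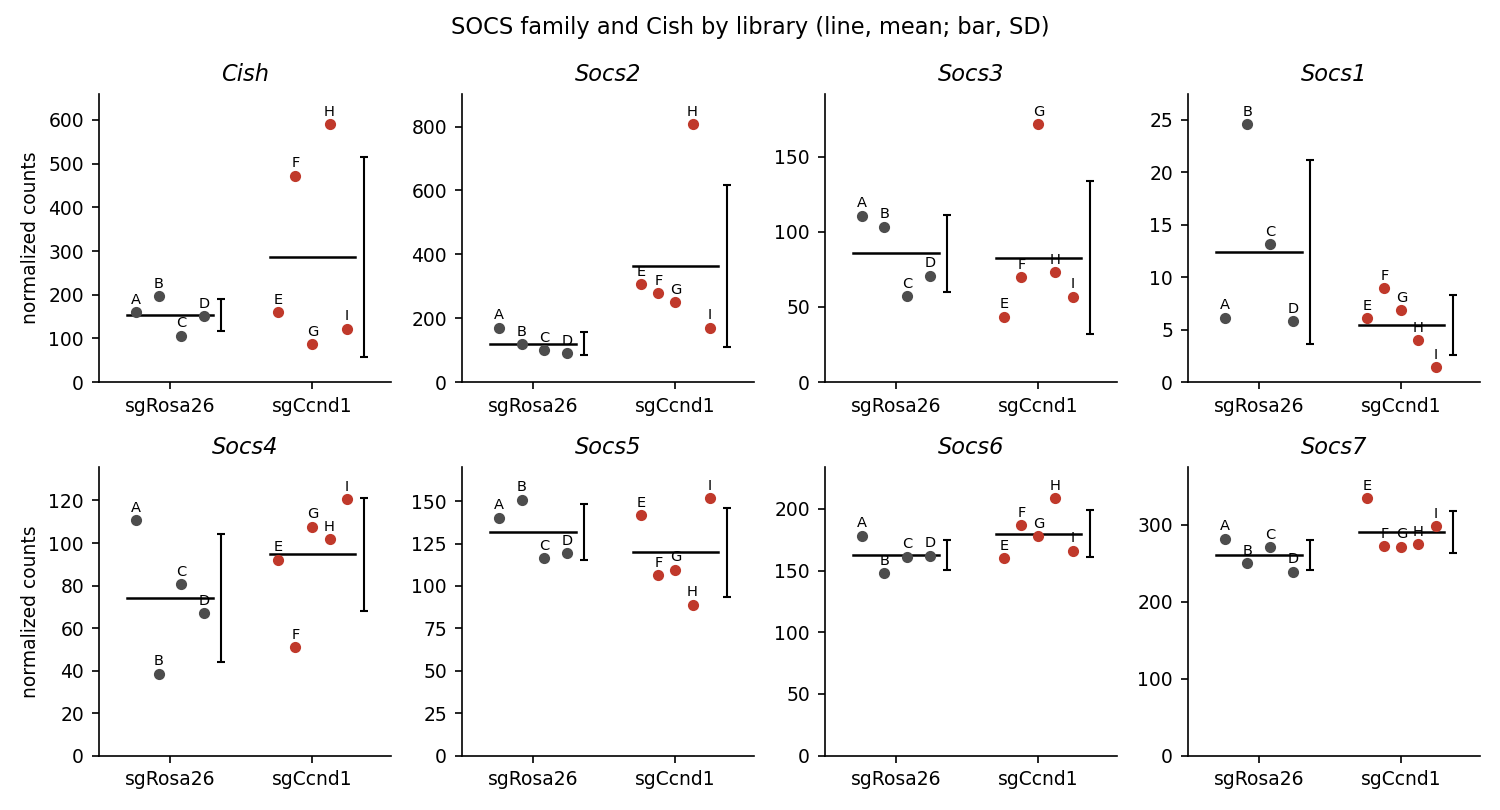
Normalized counts of Cish and Socs1 to Socs7 (vertical axes from 0) in each library, sgRosa26 in grey (A to D) and sgCcnd1 in red (E to I), with the mean as a line and the SD as a bar. Socs2 in library H reaches 807 and Cish in F and H reaches 473 and 590, while Socs7 stays between 239 and 335 in all 9 libraries.

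Socs2, known as the brake on growth hormone signalling whose loss in mice gives oversized animals, was measured at 171 normalized counts in A, 118 in B, 99.5 in C and 91.3 in D. In sgCcnd1 it was 307 in E, 278 in F and 251 in G, with 807 in H and 170.3 in I. Livers E to H lay above every control, and I lay just under A (170.9), so the groups overlapped by that single value. The means were 120 ± 35.8 (SD, n = 4) and 363 ± 253 (SD, n = 5), a ratio of 3.02. The exact permutation test of the means, two-sided, gave p = 0.0397 (the smallest the design allows is 0.00794), and 9.88% of all genes tested had such a p under 0.05. Leaving out any of A to H took this p to between 0.0571 and 0.125, and leaving out I gave 0.0286. With a library left out the smallest possible p is itself larger, and it is 0.0286 when 1 treated liver is left out. In limma the log2 fold change was 1.41 (SE 0.35, 95% confidence interval 0.65 to 2.18), which is a fold of 2.66 with an interval of 1.57 to 4.53. Its adjusted p in limma was 0.253, so it was not called, although it ranked 77 of 12993 by p.

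Library H carried much of that mean. Without it Socs2 averaged 252 ± 58.9 in sgCcnd1 (SD, n = 4), a ratio of 2.10 over controls, with an exact permutation p of 0.0571 (the smallest possible without H is 0.0286). The log2 fold change without H was 1.07, with an adjusted p of 0.393 in limma. On recovered whole reads the log2 fold change with all libraries was 1.60 in edgeR (adjusted p = 0.229) and 1.59 in DESeq2 (adjusted p = 0.0711), tests that gave 0% and 0.342% of all genes as higher. With H left out, a choice made after seeing the data, DESeq2 called Socs2 as higher (log2 fold change 1.08, adjusted p = 0.00239, with 0.149% of all genes called higher and 0.233% lower) and edgeR did not (1.08, adjusted p = 0.379).

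Cish, the founding member of the family and known for damping STAT5 signals of growth hormone, erythropoietin and interleukin-2, was at 160 normalized counts in A, 196 in B, 106 in C and 152 in D. It was at 161 in E, 87.1 in G and 122 in I, but at 473 in F and 590 in H. F and H exceeded all controls, G was below all of them, and E and I lay among them. The highest value was 6.77 times the lowest within sgCcnd1 and 1.85 times within sgRosa26. The means were 153 ± 37.1 (SD, n = 4) and 286 ± 229 (SD, n = 5), a ratio of 1.87 (exact permutation p = 0.397). In limma the log2 fold change was 0.53 (95% confidence interval -0.52 to 1.59, adjusted p = 0.709), an interval wide enough to hold a fold change of 3.00. Without library H the log2 fold change was 0.17 (adjusted p = 0.936 in limma). Cish shares 261 exonic bases with Gm17040 and 479 with Gm17041, both on the other strand, and whether counting used strand is not given in the sources used here, so reads of these genes cannot be told apart.

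**Figure D2:**
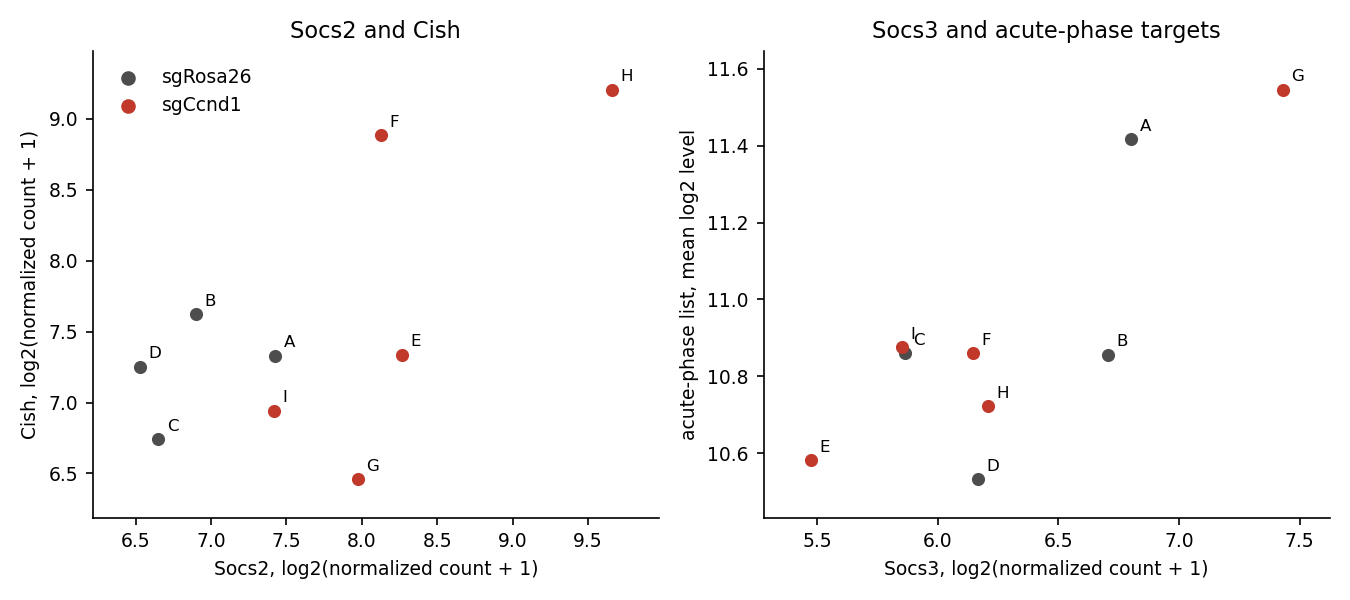
Each point is 1 library, sgRosa26 in grey and sgCcnd1 in red. The left panel sets Cish against Socs2, both as log2(normalized count + 1), and the right panel sets the mean log2 level of 22 acute-phase genes against Socs3; library H is at the top right on the left (r = 0.65 over 9 libraries) and library G on the right (r = 0.81).

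Socs2 and Cish are both known STAT5 targets, yet across the 9 libraries they varied together only in part. Pearson's r of their log2 values was 0.65 (exact permutation p = 0.0619, adjusted over 28 pairs 0.389), and Spearman's rho was 0.53 (exact permutation p = 0.148). Leaving out D and H, the libraries farthest from the median of Socs2, brought r to 0.31. The relation rests on H, since r was 0.29 without H alone and 0.67 without D alone. Library G shows the difference best, since its Socs2 was above every control and its Cish below every control. The mean log2 level of 15 growth hormone targets, STAT5-dependent liver genes such as Igf1 and several Mup and Cyp genes, was compared with both. Its r was 0.29 with Socs2 (exact permutation p = 0.437, adjusted 0.437) and 0.33 with Cish (exact permutation p = 0.382, adjusted 0.437), with rho at 0.43 and 0.48. Without the 2 libraries farthest from the median these became -0.045 and 0.010.

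The genes whose pattern was most like that of Socs2, among 10410 genes averaging 50 normalized counts or more, were Ero1b, an endoplasmic reticulum oxidase (r = 0.96 over 9 libraries), Crlf3 (r = 0.93) and Uck2, a uridine-cytidine kinase (r = 0.92). All 3 were highest in library H, and without D and H their r was 0.95, 0.84 and 0.77. Cish was most like Med26, a subunit of the Mediator complex (r = 0.91), Foxa2, a hepatocyte transcription factor (r = 0.90), and Nop16, a ribosome assembly factor (r = 0.90). Without F and H these became 0.93, 0.50 and 0.82, so the likeness to Foxa2 rests mostly on those 2 livers. None of the 6 genes passed in limma between groups, and they were picked out of all 10410 as the most similar, so r is a description of these libraries.

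Socs3, which binds the shared receptor gp130 and the JAK kinases and ends interleukin-6 signalling in hepatocytes, was at 111 normalized counts in A, 103 in B, 57.3 in C and 70.9 in D. In sgCcnd1 it was 43.5 in E, 69.8 in F and 171 in G, with 73.0 in H and 56.8 in I. Liver G was the highest of all, E and I were below all controls, and the groups overlapped widely. The means were 85.6 ± 25.6 (SD, n = 4) and 82.9 ± 50.8 (SD, n = 5), a ratio of 0.969 (exact permutation p = 0.952). The log2 fold change in limma was -0.16 (95% confidence interval -0.89 to 0.56, adjusted p = 0.894), which leaves room for changes of up to 1.48-fold upward and down to 0.540 of the control level.

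Socs3 was compared across livers with the acute-phase genes, the secreted proteins and their partners that hepatocytes are known to induce through STAT3. The mean log2 level of 22 of these stood 0.63 above the control mean in G and 0.50 above it in A, the livers with the highest Socs3. It was lowest in D (-0.38) and E (-0.34), and E also had the lowest Socs3. D did not match in this way, with a middle Socs3 of 70.9 normalized counts. B had a high Socs3 of 103 with the list at -0.061 from the control mean. Pearson's r was 0.81 (exact permutation p = 0.00789, adjusted over 4 relations 0.0316), while Spearman's rho was 0.42 (exact permutation p = 0.270, adjusted 0.336). Without E and G r was 0.55, and G carried more of this than E (0.64 without G alone and 0.78 without E alone). With group means subtracted, an alternative added after seeing the data, r was 0.82. Leaving out A, E, F or G in turn took the adjusted p past 0.05, to 0.138, 0.110, 0.0522 and 0.221. The genes most like Socs3 were H2-D1, a class I histocompatibility gene (r = 0.97), Serpina10, a secreted protease inhibitor (r = 0.94), and Tmem176b (r = 0.91), all highest in G, with r of 0.92, 0.78 and 0.78 without E and G.

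Socs1, the strongest known inhibitor of interferon gamma signalling, was close to the limit of detection. It was measured at 6.15 normalized counts in A, 24.5 in B, 13.1 in C and 5.83 in D, from 5, 28, 14 and 6 reads. In sgCcnd1 it was 6.10 in E, 8.95 in F and 6.85 in G, with 3.998 in H and 1.42 in I, from 8, 10, 7, 4 and 1 reads. Only B and C exceeded every treated liver, and A and D lay among them. The means were 12.4 ± 8.76 (SD, n = 4) and 5.46 ± 2.87 (SD, n = 5), a ratio of 0.440 (exact permutation p = 0.127). Its overall mean of 8.55 was under the minimum of 10 set for the main test, so 7 of the 8 members were tested there. With no filter the log2 fold change was -0.98 in limma (95% confidence interval -2.03 to 0.061, adjusted p = 0.557) and -1.14 in edgeR (adjusted p = 0.497).

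T cells and NK cells are also known to express Socs1, and their markers were read beside it. The summed level of 8 T and NK cell markers was 77.5 to 234 normalized counts in sgRosa26 and 35.0 to 156 in sgCcnd1 (exact permutation p = 0.0952), and it was highest in B and C, as was Socs1, but E was next in this sum and F next in Socs1. None of the 8 was at 0 in all libraries. All 5 of these markers that could be tested were lower at an unadjusted p under 0.05 in limma (5.74% of all genes were), none passed when adjusted, and their median log2 fold change was -1.41. The NK cell genes Ncr1 and Klrb1c were under the minimum, with means of 2.95 and 4.61 in sgRosa26 and of 3.30 and 4.11 in sgCcnd1. The part of these cells in the Socs1 values was not tested. In bulk tissue fewer cells of a type and less RNA per cell cannot be told apart.

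Socs1 is itself an interferon target, and 24 other genes were listed as interferon targets. All 24 had negative log2 fold changes (median -0.58) and 17 were lower at an unadjusted p under 0.05, against 5.74% of all genes. None passed when adjusted in limma, while DESeq2 on whole reads called 8 of the 24 as lower, against 0.634% of all genes. The examples with the smallest p were Gbp3, an interferon-induced GTPase (190 ± 32.7 against 108 ± 11.4, log2 fold change -0.80, adjusted p = 0.135 in limma and 0.000191 in DESeq2), and Ifit1, an antiviral RNA-binding protein (log2 fold change -0.84, adjusted p = 0.227 in limma and 0.00721 in DESeq2). Across libraries, r of Socs1 with the mean log2 level of this list was 0.57 (exact permutation p = 0.104, adjusted 0.208) and rho was 0.37 (exact permutation p = 0.336). Without B and I r was 0.24. What relation there was rests on control library B, since r was 0.17 without B alone and 0.67 without I alone.

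Socs4 and Socs5, a closely related pair known for acting on the epidermal growth factor receptor, had intervals that include 0. Socs4 was at 111, 38.6, 80.7 and 67.0 normalized counts in A to D. It was at 92.2, 51.0, 108, 102 and 121 in E to I, so that only I lay above all controls. Its means of 74.2 ± 29.96 (SD, n = 4) and 94.7 ± 26.5 (SD, n = 5) gave a log2 fold change of 0.39 in limma (95% confidence interval -0.26 to 1.03, adjusted p = 0.655). Socs5 was at 140, 151, 116 and 119 in A to D and at 142, 107, 110, 89.0 and 152 in E to I, with F, G and H below all controls and I just above them. Its log2 fold change was -0.15 (95% confidence interval -0.51 to 0.20, adjusted p = 0.748 in limma), and the means were 132 ± 16.5 (SD, n = 4) and 120 ± 26.2 (SD, n = 5). Without H, the lowest library, it was -0.056 (adjusted p = 0.945 in limma).

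Socs6 and Socs7 are known for binding insulin receptor substrates and the receptor KIT, and they were the steadiest members. Socs6 ran from 148 to 178 normalized counts in sgRosa26 and from 160 to 209 in sgCcnd1, with means of 163 ± 12.3 (SD, n = 4) and 180 ± 19.2 (SD, n = 5). F and H lay above all controls and the other treated livers among them (log2 fold change 0.14, 95% confidence interval -0.089 to 0.38, adjusted p = 0.646 in limma), and without H, the highest library, the log2 fold change was 0.089 (adjusted p = 0.856 in limma). Socs7 ran from 239 to 282 in sgRosa26 and from 271 to 335 in sgCcnd1, with means of 260.1 ± 19.3 (SD, n = 4) and 290.2 ± 27.2 (SD, n = 5). E and I lay above all controls (log2 fold change 0.16, 95% confidence interval -0.055 to 0.37, adjusted p = 0.574 in limma). These intervals leave room for changes of at most about 1.30-fold for Socs6 and 1.29-fold for Socs7, far narrower than for Cish or Socs2.

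**Figure D3:**
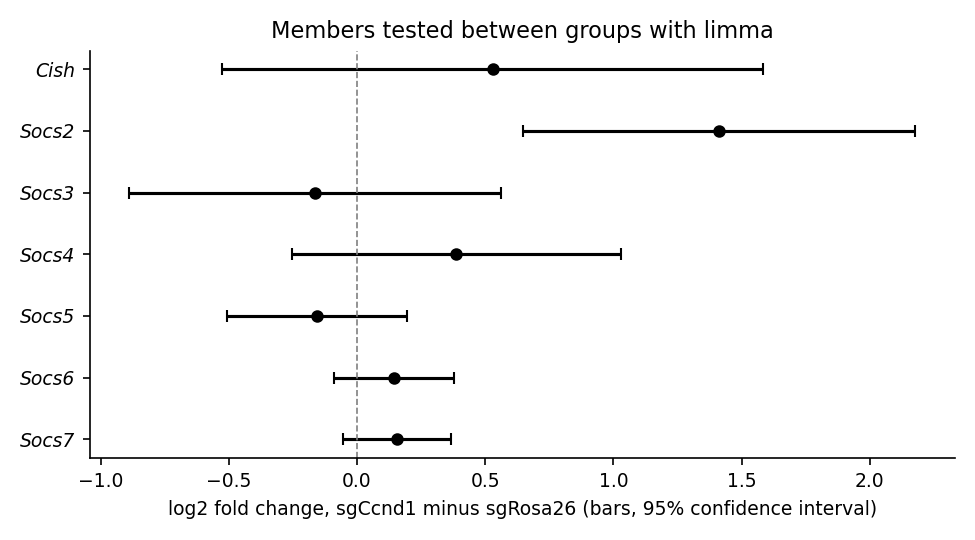
Log2 fold change, sgCcnd1 minus sgRosa26, of the 7 members tested in limma on log2(normalized count + 1), with 95% confidence intervals as bars. The interval of Socs2 (0.65 to 2.18) lies above 0 although its adjusted p is 0.253, and the intervals of the other 6 include 0.

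Counted over the family, 5 of the 7 members tested had a positive log2 fold change and 2 a negative one, with a median of 0.16, against 52.9% positive and a median of 0.014 over all 12993 genes. At an unadjusted p under 0.05, 1 member was higher (Socs2), against 5.22% of all genes, and none was lower. In no member were the groups fully separated, against 3.89% of all genes.

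The members differed widely in how much they varied between livers of the same group. The SD of log2 values within groups was 0.95 for Cish, above 99.2% of all genes tested, 0.68 for Socs2 (above 97.5%), 0.63 for Socs3 (above 96.6%) and 0.55 for Socs4 (above 94.8%). It was 0.26 for Socs5, 0.13 for Socs6 and 0.12 for Socs7, the last above only 16.7% of genes. Without H, an alternative added after seeing the data, it was 0.38 for Socs2 (above 84.9% of genes), 0.79 for Cish (above 98.4%) and 0.10 for Socs6 (above 9.97%). Cish and Socs7 lay at opposite ends of this order although they had nearby mean levels of 227 and 277 normalized counts. Liver H was the highest for 3 members (Socs2, Socs6 and Cish), I for Socs4 and Socs5, and E, G and B for 1 each, so no library was high for the whole family.

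Divided by the merged exon length of each gene, control levels ranked Socs7 first at 35.8 ± 2.66 normalized counts per kb (SD, n = 4), then Socs3 at 29.6 ± 8.85, Cish at 23.9 ± 5.78 and Socs5 at 20.5 ± 2.58. Lower followed Socs6 at 14.3 ± 1.09, Socs2 at 12.6 ± 3.75, Socs4 at 10.8 ± 4.36 and Socs1 at 4.27 ± 3.01. The ranges of neighbours in this order overlapped, except between Socs5 and Socs6, so most neighbouring ranks are not separated beyond the spread of 4 livers. In sgCcnd1 the mean level per kb was 44.6 ± 35.6 for Cish, 39.9 ± 3.74 for Socs7 and 38.0 ± 26.6 for Socs2 (SD, n = 5). Without H, Socs7 came first at 40.5 ± 4.10, followed by Cish at 32.8 ± 27.6, Socs3 at 29.5 ± 20.2 and Socs2 at 26.4 ± 6.18 (SD, n = 4). Merged exon length counts every annotated exon. It is 9.53 kb for Socs2 and 6.42 kb for Cish, most of the span of that gene, but 2.91 kb for Socs1 and 2.89 kb for Socs3. A level per kb of the transcript actually made may therefore be higher, by an amount that can differ between members. The order above depends on this annotation as well as on the spread between livers.

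Among the 28 pairs of members, r ran from -0.79 to 0.80 with a median of -0.022, and 12 were positive. No pair passed when adjusted over the 28, by Pearson or by Spearman. At an unadjusted exact permutation p under 0.05 stood 3 pairs, each with an adjusted p of 0.109. Socs2 with Socs6 had r = 0.80 (exact permutation p = 0.0117) and rho = 0.53, and r was 0.55 without D and H. Socs5 with Socs6 had r = -0.79 (exact permutation p = 0.0103) and rho = -0.68, and r was -0.64 without H and I. Socs1 with Socs4 had r = -0.78 (exact permutation p = 0.0116) and rho = -0.63, and r was -0.42 without B and I. No common rise and fall of the whole family was seen in these livers.

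The rest of the pathway was read from lists of known genes, and no gene of any list passed the adjusted threshold in limma. Of the receptors upstream, 25 were tested, of which 1 was higher and 5 lower at an unadjusted p under 0.05 (5.22% and 5.74% of all genes were), with a median log2 fold change of -0.092 (0.035 with a minimum mean of 100). Among receptors for the hormones that induce Socs2 and Cish, log2 fold changes were 0.14 (SE 0.093) for the growth hormone receptor Ghr and 0.094 (SE 0.22) for the prolactin receptor Prlr. The interleukin-6 receptor chains upstream of Socs3 were at -0.073 (SE 0.31) for Il6ra and 0.26 (SE 0.14) for Il6st, which encodes gp130 (adjusted p from 0.526 to 0.950 for these 4 in limma). For Il6st, 4 of the 5 treated livers lay above all controls. That none of the 4 passed does not show that they were unchanged. The smallest p values of the list were those of the next 2 receptors. Csf2ra, the receptor chain for GM-CSF, was at 127 ± 5.17 in sgRosa26 and 84.9 ± 8.56 in sgCcnd1, with all 5 treated livers below all controls (log2 fold change -0.58, adjusted p = 0.225 in limma and 0.0127 in DESeq2, which gave 0.634% of genes as lower). Groups that do not overlap, in either direction, were found for 3.89% of all genes tested. Csf3r, the receptor for G-CSF, had a log2 fold change of -0.59 (adjusted p = 0.253 in limma). The summed level of 6 neutrophil markers was 49.96 to 122 in sgRosa26 and 32.8 to 59.7 in sgCcnd1, and that of 7 Kupffer cell and macrophage markers 2416 to 3227 and 2218 to 2888. Cd68, one of those macrophage markers, was at 153 ± 25.0 and 93.9 ± 19.9, with all 5 treated livers below all controls (log2 fold change -0.71, adjusted p = 0.245 in limma and 0.0265 in DESeq2). Of the other 6, 2 had positive and 4 negative log2 fold changes, none at an unadjusted p under 0.05, with Adgre1 at 0.0046 and Clec4f at -0.056. Their part in these receptor values was not tested.

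Stat5a, a factor upstream of Socs2 and Cish, was at 328 ± 28.4 normalized counts in sgRosa26 and 254 ± 18.03 in sgCcnd1, with all 5 treated livers below all controls (log2 fold change -0.37, adjusted p = 0.253 in limma). The groups did not overlap in 3.89% of all genes tested, in either direction. Stat5b, the form known to carry most growth hormone signalling in liver, had a log2 fold change of 0.036, and Stat3, upstream of Socs3, one of 0.020 (adjusted p = 0.945 and 0.977 in limma).

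**Figure D4:**
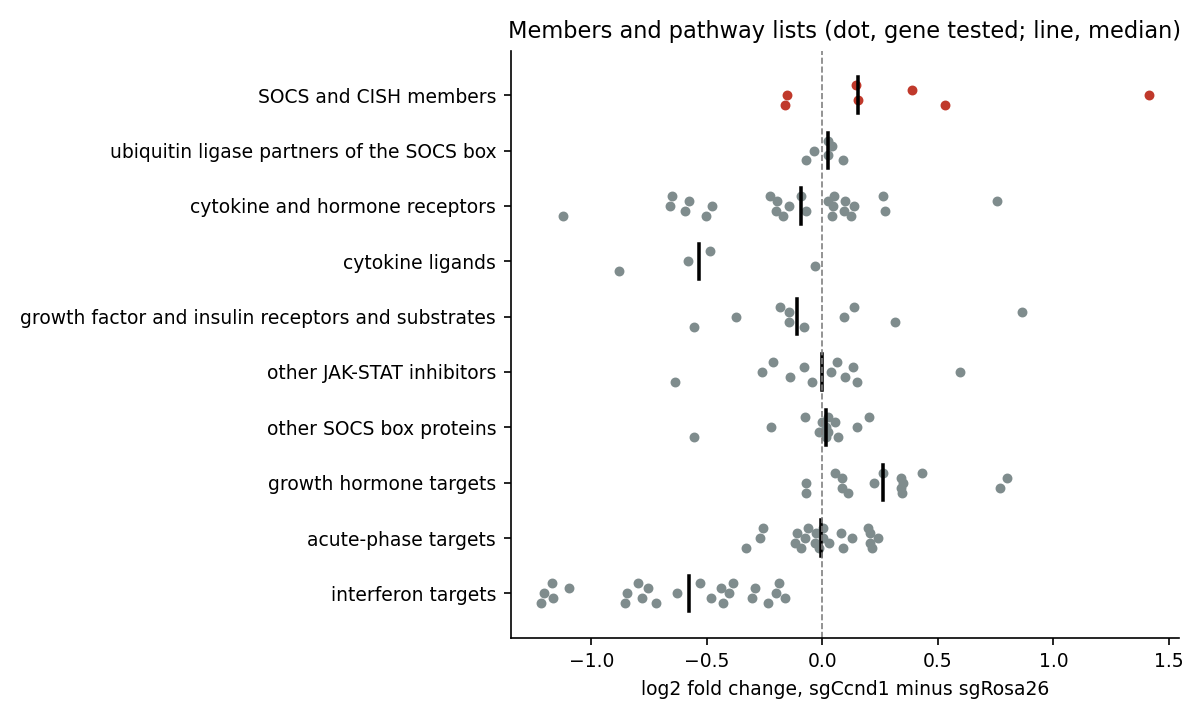
Log2 fold change, sgCcnd1 minus sgRosa26, of each gene tested in limma (dots) in the SOCS family (red) and in 9 lists of the pathway (grey), with the median of each list as a line. The interferon list lies below 0 for all 24 genes, 13 of 15 growth hormone targets lie above 0 (7 without library A), and Socs2 at 1.41 is the point farthest to the right.

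Targets of the growth hormone and interleukin-6 branches were read from lists of their own. Of 15 growth hormone targets of STAT5, 13 had positive log2 fold changes (median 0.26, with 52.9% positive over all genes), and 2 were higher at an unadjusted p under 0.05 (5.22% of all genes were). Control library A, whose mean for this list lay at -0.84 from the control mean, decided much of this: without A, 7 of 15 were positive and the median was -0.044. The median was 0.49 without C and 0.14 without H. The genes with the smallest p were Igfals, the carrier subunit of circulating IGF1 (1164 ± 195 against 1477 ± 179, log2 fold change 0.35, adjusted p = 0.337 in limma), and Igf1 itself (8075 ± 828 against 9409 ± 805, log2 fold change 0.22, adjusted p = 0.441 in limma). The 22 acute-phase targets of STAT3 were split evenly, 11 and 11, with a median of -0.0053 and none at an unadjusted p under 0.05. That split moved to 17 positive without A and to 6 positive without G. Their smallest p values belonged to Serpina3n (log2 fold change -0.26, adjusted p = 0.660 in limma) and Orm1 (0.20, adjusted p = 0.695 in limma), both highest in liver G like Socs3.

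Most cytokine ligands had few reads in these livers. Only 4 of 18, Csf1, Ctf1, Il15 and Clcf1, reached the minimum mean of 10, all 4 with negative log2 fold changes (median -0.53), and 3 were lower at an unadjusted p under 0.05 (5.74% of all genes were). The leading ones were Clcf1, a ligand of the interleukin-6 family (28.6 ± 8.55 against 15.0 ± 3.61, log2 fold change -0.88, adjusted p = 0.279 in limma), and Csf1, the macrophage growth factor (log2 fold change -0.49, adjusted p = 0.292 in limma). Il6, the classic inducer of Socs3, averaged 0.785 normalized counts in sgRosa26 and 0.684 in sgCcnd1, too few to compare, and Ifng averaged 1.71 and 0.436. Il22 and Ifnb1 had no reads in any library.

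Partners and substrates of the SOCS proteins were also listed. All 6 subunits of the SOCS box ubiquitin ligases were tested and none reached an unadjusted p under 0.05, with Cul2 at a log2 fold change of 0.091 and Elob, elongin B, at -0.071 (adjusted p = 0.756 and 0.900 in limma). Of 13 other SOCS box proteins tested, 9 were positive (6 without A, E or F in turn, and 52.9% over all genes), with none at an unadjusted p under 0.05, and Spsb1 (-0.56, adjusted p = 0.457) and Spsb3 (-0.22, adjusted p = 0.483) had the smallest p in limma. Of 12 other inhibitors of JAK-STAT signalling, 6 were positive and 1 was lower at an unadjusted p under 0.05, shares near those of all genes (52.9% and 5.74%). That was Usp18, an interferon-induced brake on the interferon receptor (187 ± 43.6 against 120 ± 24.7, log2 fold change -0.64, adjusted p = 0.279 in limma), followed by the phosphatase Ptpn1 (-0.21, adjusted p = 0.455 in limma). Among 10 growth factor and insulin pathway genes, Egfr, a substrate of Socs4 and Socs5, was at 4186 ± 2016 in sgRosa26 and 7095 ± 1687 in sgCcnd1 (log2 fold change 0.86, adjusted p = 0.334 in limma). Irs1, the insulin receptor substrate, had a log2 fold change of -0.37 (adjusted p = 0.426 in limma), and those 2 were the only ones of the 10 at an unadjusted p under 0.05, against 11.0% of all genes.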

How the data were processed

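Bulk RNA-seq values of 9 mouse livers were used. Per the submitters' processing notes, reads were processed with Trim Galore 0.6.7, HISAT2 2.2.1, featureCounts 2.0.3 and DESeq2 2.11.40.8 (FastQC 0.74 and MultiQC are also named), on mm10, which is GRCm38. Annotation and strand use are not given in the sources used here. The authors deposited a signal of normalized counts per gene. In every library 100% of values (tolerance 0.01) were whole multiples of the value of 1 read, so whole reads were recovered, although in library H that value is 0.9996 and rounding can hide the steps. Column names match groups but no replicate numbers, and p-values measure the spread between these livers.

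Genes with a mean of at least 10 were tested as log2(normalized count + 1) with limma 3.58.1 (R 4.3.3, trend, two-sided), Benjamini-Hochberg over 12993 genes, threshold 0.05. Fold changes on this scale understate changes of low genes. Single values used exact permutation tests over all 126 splits, and correlations all pairings. Alternatives were other pseudocounts, filters and scalings, edgeR 4.0.16 (TMM, quasi-likelihood) and DESeq2 1.42.0 on whole reads, and leaving out each library. Exon lengths came from GENCODE M21. On simulated counts for this comparison (12993 genes, 200 changed), limma recovered 82% of 2-fold and 41% of 1.5-fold changes, edgeR 81% and 43%, DESeq2 85% and 56%. These shares are over genes drawn at random and need not hold for genes that vary as widely within groups as Cish or Socs2. Unchanged genes made up 7 of 130 calls in limma, 7 of 131 in edgeR and 18 of 159 in DESeq2.

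The members and the gene lists were chosen with earlier results of these data known. Named were all members, Ccnd1, from each list the genes passing or else the 2 with the smallest p, and the 3 genes most like Socs2, Socs3 and Cish by Pearson's r. Receptors and factors directly upstream of the members, genes near 0, and single cell markers, were named beyond that rule after their values were seen. Without molecular identifiers, depth describes counting error alone. A result that the naming rule picked is not reported here.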

Additional observations from a re-analysis of the deposited data

Results flagged for a closer look

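Among sgCcnd1 livers, library H had 807 normalized counts of Socs2 while the other 4 had 170.3 to 307, a gap of 0.785 of the whole range. Library G had 171 normalized counts of Socs3 while the other 4 had 43.5 to 73.0, a gap of 0.769 of the range. These 2 stood out of 24 sets of values examined for a library far from the others of its group, where chance alone gives about 1 in 20, or 1.2. Both gaps were taken on normalized counts, and a high library stands out less on a log2 scale. The rate of 1 in 20 need not hold for skewed counts.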

How the results depend on the processing

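Over the alternatives (19 or 20 for each member), the log2 fold change ran from 1.07 to 1.63 for Socs2 (adjusted p from 0.00239 to 0.534), 0.17 to 0.91 for Cish, -0.46 to 0.024 for Socs3, 0.11 to 0.61 for Socs4, -0.25 to -0.056 for Socs5, 0.082 to 0.19 for Socs6 and 0.10 to 0.19 for Socs7. Of these values 136 kept their direction and their side of the threshold. The exceptions were Socs3 without E (0.024) and Socs2 in DESeq2 without H (1.08), which made the count of members called higher 1 in place of 0. Over all genes, DESeq2 called 41 higher and 76 lower (16 and 25 without H), against 0 and 1 in limma, edgeR with no filter 2 lower, edgeR without H 0 lower, and quantile normalization 2 lower. Leaving out each library in turn gave 0 to 2 genes lower (0 without B, D, F, H or I).

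The number of members with an exact permutation p under 0.05 was 1 and became 0 to 1, being 0 without A to H in turn. For Socs2 the difference in means was 243 normalized counts and 132 to 291 with each library left out (exact permutation p from 0.0286 to 0.125). For Socs3 it was -2.69 and ran from -24.8 to 7.16, positive without A (5.68), B (3.27), E (7.16), F (0.570) or I (3.83). The r of Socs3 with acute-phase genes ran from 0.64 to 0.86, and that of Socs2 with growth hormone targets from -0.014 (without H) to 0.51. With a minimum mean of 100 the median of the receptor list was 0.035 and that of the growth factor list 0.11, against -0.092 and -0.11 with the minimum of 10. The causes were not tested. The choices without H, with no filter in edgeR and with group means subtracted were added after seeing the data.

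No paired analysis was possible because no replicate numbers are in the column names. Depth limits Socs1 most, with 1 to 28 reads per library, and the cytokine ligands, 14 of which could not be tested. With 4 and 5 livers, limma recovered 41% of changes of 1.5-fold in simulated data, a share over genes drawn at random. It need not hold for Cish, Socs2, Socs3 or Socs4, whose SD within groups was above that of at least 94.8% of genes tested.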
